A study of Mus musculus with 12 samples.

Results

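Sarcolipin and 7 further genes whose messenger RNA is enriched in atrial over ventricular cardiomyocytes were followed in ventricular tissue of humanized phospholamban mice. The members are Sln, Myl7, Myl4, Mybphl, Dkk3, Stard10, Sbk2 and Bmp10, chosen by symbol, and all 8 were found among the 33641 genes listed in each of 12 samples. Of the 8, 7 had a mean of at least 0.5 TPM (transcript abundance as a share of the sample, per unit of transcript length) and were among the 12526 genes tested. Bmp10 lay under that limit.

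RNA sequencing of polyA libraries covered the left ventricle (LV) and right ventricle (RV) of WT-PLN mice and of R14del-PLN mice, with 3 samples in each of the 4 groups. Both lines are knock-ins that express human phospholamban from the mouse locus, so the WT-PLN controls also carry human coding sequence. R14del-PLN mice have 1 allele that lacks the codon for arginine 14 and an intact allele, and the labels of these samples abbreviate them as KO. The labels give the strain as C57BL/6J and an age of 12 to 14 weeks. The study's methods describe chimeras of 129/Sv and C57Bl/6J origin crossed to Sox2-Cre mice, which gave a hybrid line. Values were deposited in TPM, which keep no record of sequencing depth. Counting error is therefore unknown, and a gene without signal is described as listed at 0.

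Adult atrial and ventricular cardiomyocytes build their thick filaments with different myosin light chains. Atrial myocytes carry the products of Myl7 (the regulatory light chain MLC2a) and Myl4 (the essential light chain MLC1a), and ventricular myocytes carry those of Myl2 and Myl3. Sarcolipin is a short membrane peptide of the sarcoplasmic reticulum that inhibits the calcium pump SERCA, as phospholamban does, and in the mouse heart it is known chiefly from the atria.

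The ventricular light chains were abundant in each sample, which does not tell whether a sample also held atrial tissue. Myl2 ranged from 10599 to 16486 TPM and Myl3 from 3758 to 5988 TPM over the 12 samples, and all 5 genes of the ventricular list were above 0 in each sample. In the RV sample WT-PLN 2, where Myl7 stood highest at 319.9 TPM, Myl2 stood at 11089 TPM. In bulk tissue, fewer cells of a type and less RNA per cell cannot be told apart.

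Several libraries stood apart by values outside these genes. Both WT-PLN samples numbered 1 had 0.250 to 0.284 TPM summed over 4 Y-linked genes, against 43.5 to 63.7 TPM in the other 10 samples, although the study's methods describe male mice. The RV sample R14del-PLN 3 was the only one with another run number in its file name. Mitochondrial genes held 37.3% of TPM in the LV sample R14del-PLN 3, against 44 to 54.5% in the other samples, and Myl2 was highest there.

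The coding sequence of Sln is shown because the comparison turns on this transcript, which encodes 31 residues. It lies at chr9:53853473-53853568 (GRCm38, plus strand), within the last of 2 exons of the gene (chr9:53850164-53854560), and comes from GENCODE, with the start and stop codons in capitals.
Sln coding sequence: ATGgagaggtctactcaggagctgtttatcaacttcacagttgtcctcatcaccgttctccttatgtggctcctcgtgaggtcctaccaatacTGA

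The 250 bases before the RefSeq start of Myl7, Myl4 and Mybphl are shown because these transcripts followed Sln from sample to sample. RefSeq windows (GRCm38.p6) were at hand for 6 of the 8 members, all but Sln and Dkk3. Capitals mark matches, on either strand, to 5 motifs of factors active in the heart. The T-box half-site was searched as AGGTGT. The site bound by GATA factors was searched as AGATAA. For NR2F factors, which are active in atria, the half-site searched was AGGTCA. The core of the MEF2 site was searched as TAAAAATA. The CArG box, the element of serum response factor, was the other motif.
Myl7, chr11:5898783-5899032, minus: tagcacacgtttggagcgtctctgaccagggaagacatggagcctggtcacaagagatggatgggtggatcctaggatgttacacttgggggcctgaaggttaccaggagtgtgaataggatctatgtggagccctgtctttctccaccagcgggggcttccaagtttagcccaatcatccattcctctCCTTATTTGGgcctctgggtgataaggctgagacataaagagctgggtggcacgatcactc
Mybphl, chr3:108364661-108364910, plus: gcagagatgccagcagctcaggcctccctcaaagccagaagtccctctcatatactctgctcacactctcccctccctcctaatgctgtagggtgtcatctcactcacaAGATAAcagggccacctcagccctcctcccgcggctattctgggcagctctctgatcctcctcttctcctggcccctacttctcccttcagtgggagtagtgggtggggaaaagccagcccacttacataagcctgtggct
Myl4, chr11:104550413-104550662, plus: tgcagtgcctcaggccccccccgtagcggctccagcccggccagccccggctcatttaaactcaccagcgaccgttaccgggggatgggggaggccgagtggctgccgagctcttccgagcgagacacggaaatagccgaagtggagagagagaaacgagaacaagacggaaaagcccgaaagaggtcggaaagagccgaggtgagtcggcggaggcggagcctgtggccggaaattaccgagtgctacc

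The Myl7 window held 1 CArG box, from base -61 to base -52 before the start, and the Mybphl window held 1 GATA site, from -141 to -136. The Bmp10 window, not shown, held 2 GATA sites. No match was found in the windows of Myl4, Sbk2 and Stard10. These 3 genes have 8, 5 and 11 annotated transcripts, and whether the starts taken are those used in heart was not tested. Among all 32851 RefSeq windows of the same length, 1.47% held a CArG box, 9.99% the GATA site, 11.8% the T-box half-site, 14.0% the NR2F half-site and 2.45% the MEF2 core. None of the 5 motifs, as searched, was thus shared by the 3 windows shown, and no overlap between matches occurred. Sites that differ from the searched letters, such as the tgataa in the Myl7 window, were not marked.

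Sln was at 3.62, 0.0547 and 27.8 TPM in the WT-PLN LV samples 1 to 3 and at 0.0237, 0.142 and 0 TPM in the R14del-PLN LV samples. In RV it was at 0.101, 36.9 and 0.301 TPM in WT-PLN and at 1.79, 11.2 and 0.369 TPM in R14del-PLN samples. Samples of each group other than LV R14del-PLN thus differed by at least 1 order of magnitude, and LV of WT-PLN 2 lay inside the range of the LV R14del-PLN samples. By group mean, the order was RV WT-PLN (12.4 ± 21.2 TPM), LV WT-PLN (10.5 ± 15.1 TPM), RV R14del-PLN (4.46 ± 5.90 TPM) and LV R14del-PLN (0.0552 ± 0.0760 TPM; SD, n = 3 each). By median the order changed, with LV WT-PLN at 3.62 TPM, RV R14del-PLN at 1.79 TPM, RV WT-PLN at 0.301 TPM and LV R14del-PLN at 0.0237 TPM. Among neighbours in either order, only the ranges of the R14del-PLN groups of LV and RV did not overlap.

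**Figure D1:**
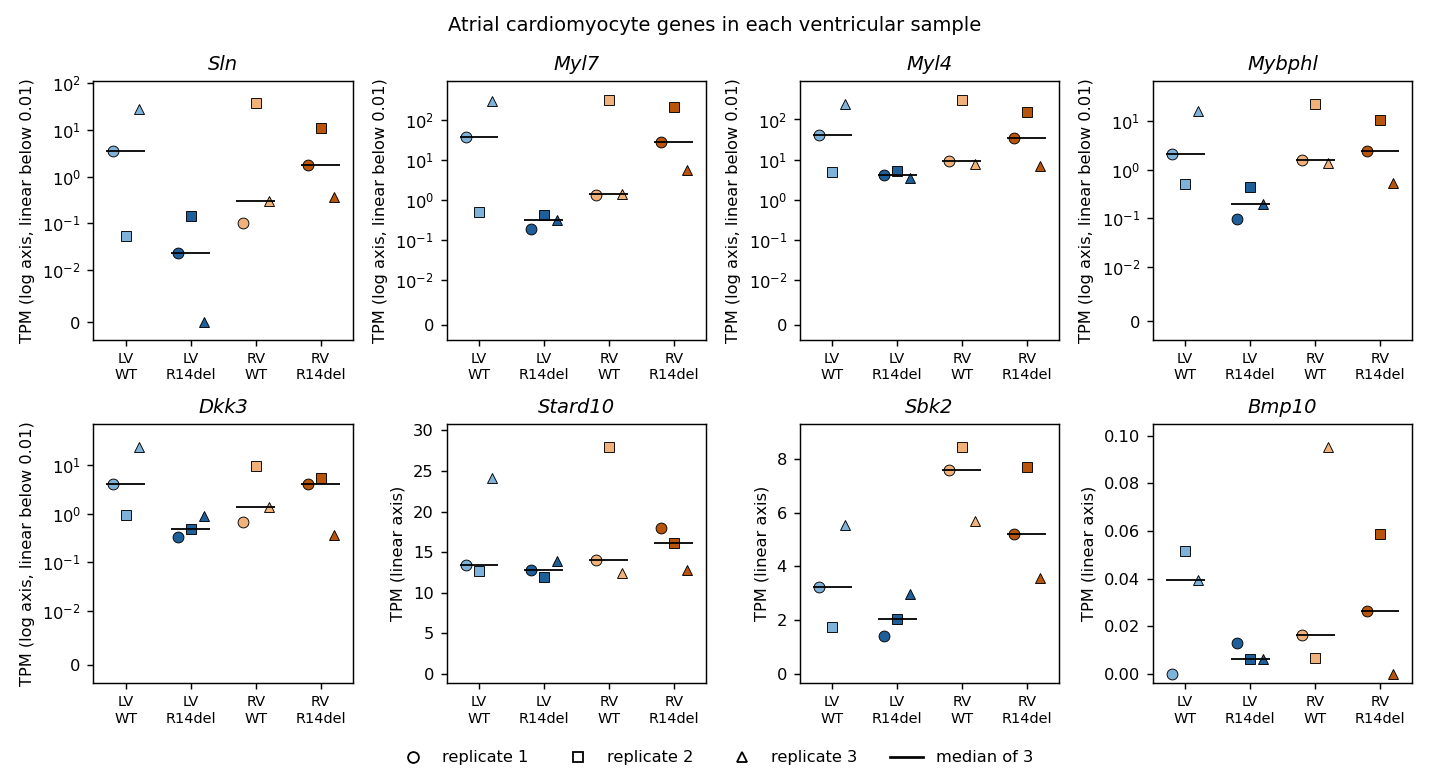
TPM of each member (vertical axes, logarithmic for 5 genes and linear for Stard10, Sbk2 and Bmp10) in the 4 groups, with 1 symbol per replicate number and a line at the median of 3. The RV WT-PLN 2, LV WT-PLN 3 and RV R14del-PLN 2 samples stand highest for Sln, Myl7, Myl4, Mybphl and Dkk3, and Sln reaches 36.9 TPM.

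Myl7 (chr11:5896637-5898782, minus strand, 7 exons) was at 39.4, 0.512 and 299.4 TPM in the WT-PLN LV samples and at 0.190, 0.440 and 0.329 TPM in the R14del-PLN LV samples. Its RV levels were 1.35, 319.9 and 1.46 TPM in WT-PLN and 28.5, 211.8 and 5.75 TPM in R14del-PLN samples. The highest 3 samples were those that were highest for Sln, and all 3 LV samples of R14del-PLN were below every other sample, the nearest being LV WT-PLN 2. Between its highest and lowest sample Myl7 differed 1688-fold.

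Myl4 (chr11:104550663-104595753, plus strand) was at 41.4, 4.85 and 247.1 TPM in the WT-PLN LV samples and at 4.05, 5.28 and 3.42 TPM in the R14del-PLN LV samples. The RV levels of Myl4 were 9.09, 301.9 and 7.86 TPM in WT-PLN and 34.5, 155.1 and 6.74 TPM in R14del-PLN samples. Its lowest value, 3.42 TPM, was above those of Myl7 and Sln in that sample, and the LV ranges of the 2 genotypes overlapped.

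Mybphl (chr3:108364911-108380057, plus strand, 9 exons), which encodes a myosin-binding protein of atrial sarcomeres and the conduction system, was at 2.12, 0.511 and 15.5 TPM in the WT-PLN LV samples and at 0.0984, 0.441 and 0.196 TPM in the R14del-PLN LV samples. The RV levels of Mybphl were 1.59, 21.7 and 1.33 TPM in WT-PLN and 2.44, 10.5 and 0.527 TPM in R14del-PLN samples. The same 3 samples stood highest, and the LV ranges of the genotypes were separated by the small step from 0.441 to 0.511 TPM.

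Dkk3 (chr7:112116017-112159057, minus strand, 8 exons), a secreted glycoprotein of the Dickkopf family, was at 4.03, 0.944 and 23.1 TPM in the WT-PLN LV samples and at 0.336, 0.473 and 0.886 TPM in the R14del-PLN LV samples. For Dkk3 the RV levels were 0.660, 9.60 and 1.36 TPM in WT-PLN and 3.99, 5.51 and 0.370 TPM in R14del-PLN samples. Here LV WT-PLN 3 stood above RV WT-PLN 2, unlike the order for Sln and the light chains, and the LV genotypes were again separated by a small step.

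Stard10 (chr7:101317086-101346626, plus strand), a lipid-transfer protein, was at 13.4, 12.6 and 24.1 TPM in the WT-PLN LV samples and at 12.8, 12.0 and 13.9 TPM in the R14del-PLN LV samples. Stard10 had RV levels of 14.0, 28.0 and 12.4 TPM in WT-PLN and 18.0, 16.1 and 12.8 TPM in R14del-PLN samples. All samples held a floor near 12 TPM, from which RV WT-PLN 2 and LV WT-PLN 3 stood out at about the level of 24 to 28 TPM, and every pair of groups overlapped.

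Sbk2 (chr7:4940512-4964406, minus strand), a serine/threonine kinase gene of striated muscle, was at 3.23, 1.75 and 5.56 TPM in the WT-PLN LV samples and at 1.42, 2.04 and 2.96 TPM in the R14del-PLN LV samples. The RV samples held 7.59, 8.46 and 5.70 TPM in WT-PLN and 5.21, 7.70 and 3.56 TPM in R14del-PLN samples. The RV samples of each genotype were all above the LV samples of that genotype, a pattern that the RV WT-PLN 1 and 3 samples shared although their Sln was low. Ssc5d, transcribed from the other strand across part of Sbk2, averaged 1.30 TPM, and although the study's methods describe a stranded preparation, the sources used here do not say whether counting used strand.

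Bmp10 (chr6:87428994-87437677, plus strand, 2 exons), a secreted growth factor known from the atria, ranged from 0 to 0.0954 TPM and was listed at 0 in 2 of 12 samples. Its highest sample was RV WT-PLN 3, and RV WT-PLN 2, highest for Sln, had 0.00657 TPM. It was thus near 0 in all samples, also where the atrial light chains were high.

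Sln followed the light chains closely over the 12 samples. On the log2(TPM + 1) scale, its Pearson's r was 0.964 with Myl7, 0.983 with Myl4 and 0.971 with Mybphl, with Spearman's rho of 0.972, 0.951 and 0.923 (permutation p = 1e-05 for each r, the smallest that 100000 resamples can give, and 2.33e-05 after Benjamini-Hochberg adjustment over 7 pairs). Dkk3 followed with r = 0.942 and rho = 0.797 (adjusted permutation p = 8.75e-05 for r). LV and RV samples with one number may come from one heart, so the 12 points are not known to be independent.

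Within the 6 LV samples r was 0.986 with Myl7, 0.995 with Myl4, 0.991 with Mybphl and 0.989 with Dkk3, and the adjusted exact permutation p lay between 0.00972 and 0.0292. Within the 6 RV samples the same 4 values were 0.957, 0.980, 0.976 and 0.926, with adjusted exact p from 0.00972 to 0.0146. Without RV WT-PLN 2 and LV WT-PLN 3, which lay farthest from the median of Sln, r over 10 samples was 0.971, 0.979, 0.917 and 0.904. Without them Spearman's rho was 0.952, 0.915 and 0.867 for the first 3 genes (adjusted permutation p at most 0.00478) and 0.661 for Dkk3 (adjusted p = 0.0760). Pearson's r with these 4 genes thus stayed at 0.904 or more without those 2 samples. The rank correlation with Dkk3 was lower and no longer passed the adjusted threshold.

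By rank, the relation within 1 ventricle passed the threshold for 1 gene in each. In LV rho was 1 with Myl4 (adjusted exact permutation p = 0.0194), 0.886 with Myl7 and with Mybphl (0.0778 each) and 0.714 with Dkk3 (0.238). In RV rho was 1 with Myl7 (adjusted exact p = 0.0194), 0.771 with Myl4 and with Mybphl and 0.829 with Dkk3 (0.144 each).

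The other members followed Sln less evenly. Stard10 had r = 0.894 and rho = 0.594 over 12 samples (adjusted permutation p = 0.00125 and 0.0534). Without the 2 farthest samples r fell to 0.609 and rho to 0.297 (adjusted permutation p = 0.0798 and 0.475). Its relation was thus weaker without them and did not pass the threshold. Sbk2 had r = 0.618 and rho = 0.692 (adjusted permutation p = 0.0392 and 0.0222), and without those samples r was 0.507 (adjusted p = 0.159). Bmp10 had r = 0.0420 (permutation p = 0.901), with no relation to Sln detectable.

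**Figure D2:**
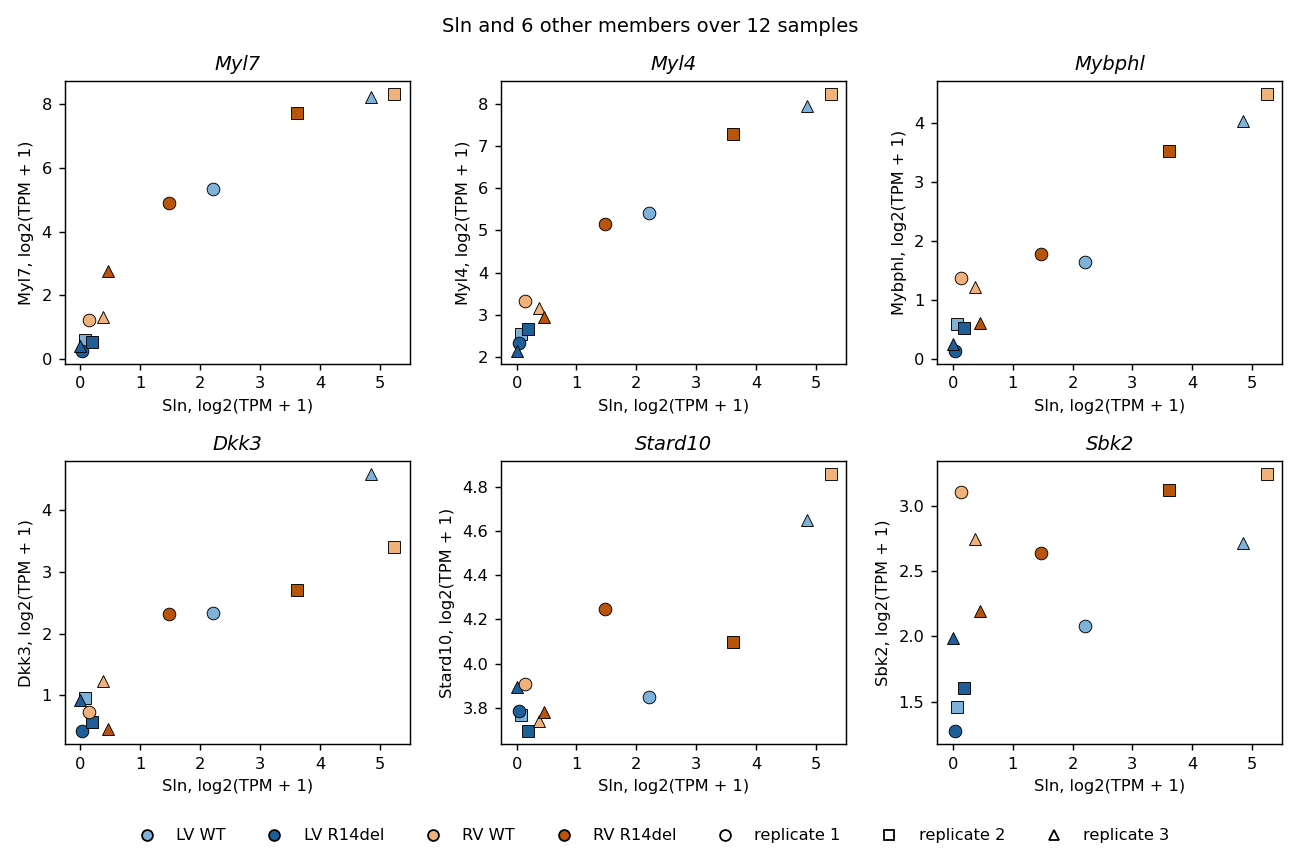
log2(TPM + 1) of 6 members (vertical axes) against that of Sln (horizontal axes) in 12 samples, coloured by group with 1 symbol per replicate number. Myl7, Myl4 and Mybphl rise with Sln over all groups (r from 0.964 to 0.983), and Sbk2 is spread at low Sln.

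No replicate number had high Sln in both ventricles of a genotype, and the labels do not say which samples share a heart. RV WT-PLN 2 had the highest Sln of all and LV WT-PLN 2 the lowest of its group, and RV R14del-PLN 2 had 11.2 TPM against 0.142 TPM in LV R14del-PLN 2. The 3 samples highest for Sln were also the 3 highest for 44 of the other 12525 genes tested (0.351%), 4 of them members. The 5 highest samples, which add LV WT-PLN 1 and RV R14del-PLN 1, were the same for 7 other genes (0.0559%), namely Myl7, Myl4, Dkk3, Mybphl, Lmntd1, Ppp1r1b and Shox2.

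R14del-PLN and WT-PLN hearts were compared in each ventricle with limma, with calls made where the fold was 1.5 or more and the adjusted p was 0.05 or less. Of the 7 members tested, 0 were called in LV and 0 in RV, where 0.519% and 0.271% of all genes tested were called. In LV all 7 members had a lower mean log2 level in R14del-PLN hearts (median log2 difference -2.00, against -0.09 over all genes). All 7 stood highest among the LV samples in the same one, WT-PLN 3, so they do not count as 7 separate observations. Of these 7 members, 2 had an unadjusted p of at most 0.05 from limma, as had 9.6% of all genes. The count of 2 depended on the setting. It was 0 after quantile normalization (1807 of 12526 genes) and 6 without LV WT-PLN 2 (851 of 12510 genes). In RV 4 were lower and 3 higher, with a median of -0.07 against -0.00338 over all genes, and 0 had an unadjusted p of at most 0.05, against 6.22% of all genes. That split holds on the log2 scale alone, since by mean TPM all 8 members were lower in RV of R14del-PLN hearts.

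The log2 difference of Sln in LV was -2.30 (SE 1.30, 95% interval -5.11 to 0.51, adjusted p = 0.620 from limma). The interval thus held both a large decrease and no difference. Its width reflects 1 estimate of spread shared by all 4 groups, so the SE of Sln was 1.30 in each comparison of 2 groups. The WT-PLN LV samples ran from 0.0547 to 27.8 TPM and the R14del-PLN LV samples from 0 to 0.142 TPM. Without LV WT-PLN 3 the difference was -1.07, and without LV WT-PLN 2 it was -3.45. Without LV R14del-PLN 3 it was -2.27. With both WT-PLN samples numbered 1 left out, it was -2.39 (adjusted p = 0.487 from limma). On the log2(TPM + 1) scale, differences of genes at low levels are understated.

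Myl7 had the largest LV difference among the members, -4.32 (SE 1.96, interval -8.55 to -0.0996), and its adjusted p from limma was 0.505. For Dkk3 the LV difference was -2.00 (SE 0.84, adjusted p = 0.460 from limma), the lowest adjusted p of the list. Myl4 and Mybphl had LV differences of -2.93 (SE 1.44) and -1.78 (SE 0.95), Sbk2 of -0.46 (SE 0.30) and Stard10 of -0.30 (SE 0.28). These values leaned on LV WT-PLN 3, without which they were -2.57 for Myl7, -1.01 for Dkk3, -1.60 for Myl4, -0.81 for Mybphl, -0.15 for Sbk2 and -0.0167 for Stard10. The ranges of the 2 genotypes in LV did not overlap for 3 of the 7 members, Myl7, Dkk3 and Mybphl, and in this direction they did not overlap for 8.47% of all genes tested. The exact permutation test on TPM gave p = 0.1 for each of these 3, the smallest that 3 samples against 3 allow, and p = 0.2 for Sln and Myl4.

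In RV the log2 difference of Sln was -0.07 (SE 1.30, interval -2.88 to 2.74, adjusted p = 1 from limma). This value had no stable sign, since it was 0.12 with a pseudocount of 0.5 and 0.62 without RV R14del-PLN 3, the sample of the other run. The RV difference of Myl7 was 1.51 (SE 1.96), with 2.69 without that sample, and of Myl4 it was 0.22 (SE 1.44), with 1.31 without it. With both WT-PLN samples numbered 1 left out, these were -0.96 for Sln, 0.31 for Myl7, -0.57 for Myl4 and -0.50 for Dkk3. By mean TPM, Myl7 and Myl4 went the other way, with R14del-PLN minus WT-PLN differences of -25.6 and -40.9 TPM. The RV ranges of the genotypes overlapped for all 8 members.

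The difference between the LV and RV effects was tested as an interaction, for which 0% of all genes tested were called. The interaction of Sln was 2.23 on the log2 scale (SE 1.84, interval -1.74 to 6.20, adjusted p = 1.00 from limma), and that of Myl7 was 5.83 (SE 2.77, interval -0.15 to 11.8), with 0 members at an unadjusted p of at most 0.05, against 1.01% of all genes. With 1 sample left out they ranged from 0.99 (without LV WT-PLN 3) to 3.89 (without RV WT-PLN 2) for Sln and, without the same samples, from 4.08 to 8.18 for Myl7. A genotype effect particular to 1 ventricle was thus not shown for these genes, and the intervals were too wide to say that the ventricles were alike.

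**Figure D3:**
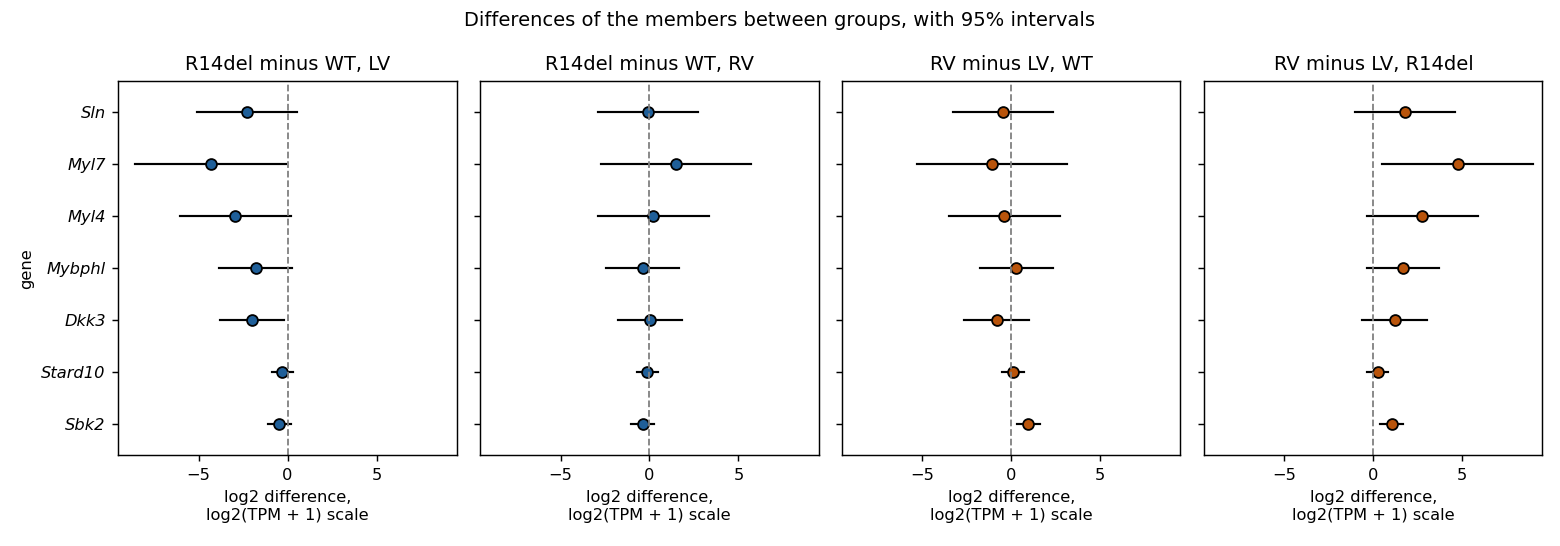
Differences in mean log2(TPM + 1) with 95% intervals for the 7 members tested, R14del-PLN minus WT-PLN in each ventricle and RV minus LV in each genotype. The intervals exclude 0 for Myl7 and Dkk3 in the LV panel, for Sbk2 in both RV minus LV panels and for Myl7 in that of R14del-PLN hearts, and 0 members passed the adjusted threshold in any panel.

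RV and LV were then compared within each genotype, where 0% of all genes were called in either. In WT-PLN hearts the median log2 difference of all genes was -0.17, so a gene with no shift of its own lies slightly lower in RV on this scale. Sbk2 went against this shift, with 0.95 in WT-PLN hearts (SE 0.30, adjusted p = 0.254 from limma) and 1.03 in R14del-PLN hearts (SE 0.30, adjusted p = 0.711 from limma), and it was 1.11 in WT-PLN hearts after quantile normalization. It did not pass the adjusted threshold. At an unadjusted p of at most 0.05, limma gave 1 member in WT-PLN hearts (Sbk2) and 2 in R14del-PLN hearts (Sbk2 and Myl7), where 14.5% and 6.57% of all genes reached it. The RV range lay above the LV range for 0.974% of all genes in WT-PLN hearts, and Sbk2 was the 1 member among them.

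With each WT-PLN pair of LV and RV samples of one number as a block, 12 of all genes were called and 0 members, and the adjusted p of Sbk2 was 0.166 from limma. In R14del-PLN hearts the RV range lay above the LV range for 5 of the 7 members, Sln, Myl7, Myl4, Mybphl and Sbk2, and for 1.26% of all genes. For these 5 the exact test on TPM gave p = 0.1, again the smallest possible (0.16 after adjustment over 8 members). These LV samples of R14del-PLN also enter the genotype comparison, so the 2 comparisons share them. The log2 difference of Sln was 1.77 (SE 1.30) and of Myl7 4.73 (SE 1.96, adjusted p = 0.745 from limma). Without RV R14del-PLN 3 these were 2.47 and 5.91, and without LV R14del-PLN 3 they were 1.74 and 4.74. In WT-PLN hearts Sln differed between the ventricles by -0.46 (SE 1.30), and by 0.35 with both samples numbered 1 left out. By mean TPM it was 1.92 TPM higher in RV, so this direction depended on the log scale.

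The ratio of Sln to Myl7 was taken in each sample, which sets sarcolipin against an atrial sarcomere gene. In LV it was 0.0919, 0.107 and 0.0930 in WT-PLN hearts and 0.125, 0.322 and 0 in R14del-PLN hearts, where both genes were under 0.5 TPM. In RV it was 0.0750, 0.115 and 0.206 in WT-PLN and 0.0627, 0.0530 and 0.0642 in R14del-PLN samples. The LV ratios of WT-PLN were alike although Sln itself spanned 0.0547 to 27.8 TPM, and in RV all R14del-PLN ratios were below all WT-PLN ratios.

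The RV difference in the ratio was -0.0721 (two-sided exact permutation test, p = 0.1, the smallest that 3 against 3 allow, and 0.4 after adjustment over 4 comparisons). The LV difference was 0.0519 (exact p = 0.7). Since TPM hold no depth, the counting error of ratios between such low values is unknown.

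**Figure D4:**
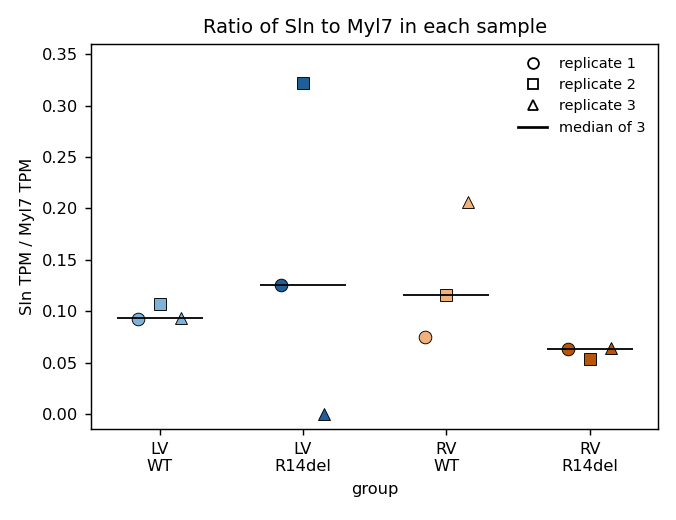
Ratio of Sln to Myl7 (TPM over TPM, vertical axis) in each sample of the 4 groups, with a line at the median of 3. The RV R14del-PLN samples lie between 0.0530 and 0.0642, under all RV WT-PLN samples, and the LV R14del-PLN ratios of genes near 0 are the most spread.

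Of 13 further genes listed as atrial, 12 were tested between genotypes. In LV 1 was called and in RV 0, where 0.519% and 0.271% of all genes tested were called. The 1 called was Kcna5, a potassium channel gene. It was at 7.35, 8.57 and 7.49 TPM in the WT-PLN LV samples and at 3.39, 3.69 and 5.24 TPM in the R14del-PLN LV samples. Unlike the members, Kcna5 was even over the WT-PLN LV samples and highest in WT-PLN 2, where Sln was at 0.0547 TPM. Its LV log2 difference was -0.80 (SE 0.15, adjusted p = 0.0312 from limma). It was called under 18 of 25 alternatives, and the call was lost without LV WT-PLN 2 or 3, LV R14del-PLN 1 or 2 or RV R14del-PLN 3 (adjusted p up to 0.161 from limma). In RV Kcna5 was at 4.86, 6.05 and 4.97 TPM in WT-PLN and 3.15, 3.82 and 3.23 TPM in R14del-PLN samples. Its RV log2 difference was -0.51 (SE 0.15, adjusted p = 0.294 from limma). All R14del-PLN values of Kcna5 were under all WT-PLN values in LV and in RV. Such separation was common, since it held for 1061 of 12526 genes tested in LV and for 725 in RV. The interaction of Kcna5 was 0.29 (interval -0.17 to 0.74, adjusted p = 1.00 from limma), so a difference between the ventricles was not shown. Kcna5 had r = 0.287 with the mean z-score of the members over the 12 samples.

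Hamp, which encodes the iron regulator hepcidin, and Fgf12, a sodium channel regulator, moved with the members, with r of 0.912 and 0.933. Hamp reached 19.01 TPM in RV WT-PLN 2, 7.64 TPM in LV WT-PLN 3 and 7.09 TPM in RV R14del-PLN 2, and was at most 2.58 TPM elsewhere. Nppa, the gene of atrial natriuretic peptide, ranged from 32.7 to 721.8 TPM with r = 0.312. Tbx5 (r = 0.646), Kcnj3 (0.413), Kcnj5 (0.286), Kcnk3 (0.0546), Gja5 (0.364), Pam (0.610), Nr2f1 (0.324) and Nr2f2 (0.340) were present in all samples without the jumps seen for Sln. These r values describe 12 samples and carry no test.

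**Figure D5:**
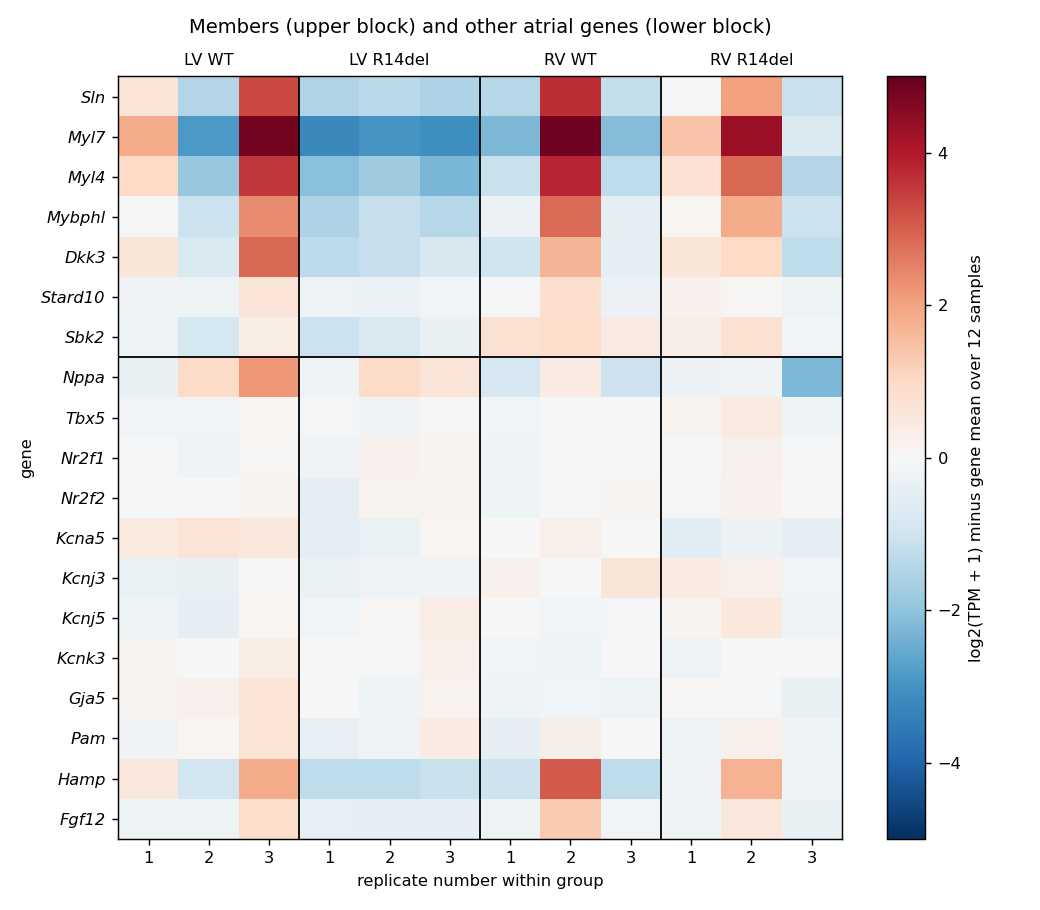
log2(TPM + 1) minus the mean of the gene over 12 samples (colour) for the 7 members tested and 12 other atrial genes (rows) in each sample (columns, by group and replicate number). Of the lower rows, Hamp and Fgf12 share the high columns of the members, with Hamp at 19.01 TPM in RV WT-PLN 2.

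Outside the members, the 10 genes most like their mean z-score were Lmntd1 (r = 0.980), Cpne5, Fgf12, Gng2, Sbk3, Hamp, Ppp1r1b, Mrvi1, Gm13002 and Sytl2 (r = 0.854). Lmntd1, a lamin tail domain gene, was at 3.85 TPM in LV WT-PLN 3 and 3.66 TPM in RV WT-PLN 2, against 0.0906 to 0.175 TPM in the R14del-PLN LV samples. Sbk3, a relative of Sbk2, was at 8.06 TPM in LV WT-PLN 3, 7.40 TPM in RV WT-PLN 2 and 0.355 to 0.636 TPM in the R14del-PLN LV samples. They were ranked by likeness and carry no test.

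Among the SERCA pumps and their small membrane regulators, the family to which sarcolipin belongs by function, 6 of 8 genes were tested and 0 were called in any of the 5 comparisons with limma. At an unadjusted p of at most 0.05 there were 3 for RV against LV in WT-PLN hearts, where 14.5% of all genes reached it, and 0 in the other comparisons. Pln ranged from 1559 to 1963 TPM and Atp2a2, the cardiac pump, from 2386 to 3464 TPM. Sln at its highest, 36.9 TPM, was thus far below Pln on the same per-length scale. The LV log2 difference was -0.14 (SE 0.11) for Pln, -0.09 (SE 0.16) for Atp2a2 and -0.14 (SE 0.32) for Strit1, the gene of the SERCA activator DWORF, listed as Gm34302. For 1810037I17Rik, which encodes another-regulin, it was -0.26 (SE 0.12), for Atp2a3 -0.26 (SE 0.17) and for Mrln, the gene of myoregulin, -0.06 (SE 0.22).

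Markers of other cells were read beside these values. The 5 adipocyte markers summed to 20.01 TPM in LV WT-PLN 3 and 22.2 TPM in RV R14del-PLN 1, against 2.77 to 6.34 TPM in the other 10 samples, among them RV WT-PLN 2 and RV R14del-PLN 2. The 7 conduction system genes summed to 14.5 TPM in LV WT-PLN 3 and 13.0 TPM in RV R14del-PLN 2, and to 5.74 to 9.39 TPM elsewhere. The 6 mesothelial markers summed to 1.28 to 9.77 TPM, highest in RV WT-PLN 1, where Sln was 0.101 TPM. The 8 fast skeletal muscle genes summed to 1.71 to 4.49 TPM, and the 4 lung markers to 0.0201 to 0.164 TPM, with Sftpa1 and Scgb1a1 listed at 0 in every sample. The part of these cell types in the level of Sln was not tested.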

How the data were processed

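Levels of polyA RNA in 12 ventricular samples were taken from TPM values that the authors deposited. Per the study's methods, reads were mapped to GRCm38 in CLC Genomics Workbench. The annotation and strand setting behind the deposited TPM are not given in the sources used here. The members and the gene lists were chosen with earlier results of these data known.

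limma 3.58.1 (R 4.3.3, empirical Bayes with trend, residual degrees of freedom 8, prior 5.15) was fitted with 4 group means to log2(TPM + 1) of the 12526 genes whose mean reached 0.5 TPM. Bmp10 was tested without the filter. P-values were adjusted by Benjamini-Hochberg over all genes. Nothing in the labels names the animals, so p-values measure the spread between samples. Exact permutation tests, correlations and figures used Python 3.11.15 with scipy 1.17.1 and matplotlib 3.10.9. BLAST 2.17.0 found no transcript of another gene at 95% identity or more over 80% of its length for any member.

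Genes were named as the 8 members, the other atrial and SERCA genes that passed that filter, markers as levels, and the 10 genes most like the mean z-score of the members. Ssc5d and Shox2 were named after their values were seen. Deviations from group means correlated between LV and RV samples of one number at 0.321 to 0.657 in WT-PLN and 0.0542 to 0.389 in R14del-PLN hearts. Between unlike numbers the values were -0.457 to 0.000824 and -0.396 to 0.16. RV samples of one number also correlated between the genotypes, which share no heart, at 0.061 to 0.219. Over the tested members alone, the WT-PLN values of one number were -0.557, -0.966 and -0.935. Whether one number means one heart was thus not settled by this check.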

Additional observations from a re-analysis of the deposited data

How the results depend on the processing

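Of 1016 results for the members, over 5 comparisons and 26 alternatives, 0 were called. These were pseudocounts of 0.5 and 0.1, a filter at 1 TPM or none, quantile and upper quartile scaling, removal of mitochondrial genes, no intensity trend, the samples of a comparison alone, no fold threshold, replicate blocks, each sample left out, and both WT-PLN samples numbered 1 left out. With the replicate number as a block, 0 members were called. Counts of members at an unadjusted p of at most 0.05 from limma did move. In LV between genotypes 5 reached it with the LV samples alone (1073 of 12598 genes). For RV against LV of R14del-PLN 6 did with those samples alone (499 of 12454 genes) and 1 without LV R14del-PLN 1 (1030 of 12550 genes). For the interaction 3 did without LV WT-PLN 2 (149 of 12510 genes) and 4 without RV WT-PLN 2 (107 of 12539 genes). Several log2 differences changed sign. For Sln in RV, R14del-PLN against WT-PLN, the value was 0.12 with a pseudocount of 0.5, 0.58 with 0.1 and 0.15 without mitochondrial genes. With both WT-PLN samples numbered 1 left out, it was -0.57 for Myl4 and -0.50 for Dkk3 in the same comparison, and 0.35 for Sln, 0.40 for Myl7 and 0.44 for Myl4 in RV against LV of WT-PLN. The interaction of Sbk2 was -0.00312 after quantile normalization. In LV between genotypes, Mrln was at 0.0157 after quantile normalization and 0.0103 after upper quartile scaling, and Atp2a2 at 0.0357 after the latter. The cause was not tested.

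With 1 sample left out, the RV genotype difference ranged from -0.96 to 1.59 for Sln, -0.86 to 1.89 for Myl4, -1.17 to 0.68 for Mybphl, -0.50 to 0.84 for Dkk3, -0.34 to 0.22 for Stard10 and -0.0373 to 0.0236 for Bmp10. RV against LV of WT-PLN ranged from -2.12 to 0.78 for Sln, -3.46 to 0.65 for Myl7, -2.06 to 0.93 for Myl4, -0.79 to 1.25 for Mybphl, -1.67 to 0.15 for Dkk3, -0.26 to 0.36 for Stard10 and -0.0263 to 0.0346 for Bmp10. The interaction ranged from -0.23 to 0.40 for Sbk2, -0.11 to 0.51 for Stard10 and -0.00674 to 0.0542 for Bmp10. The LV genotype difference ranged from -0.24 to 0.0261 for Atp2a2, -0.18 to 0.17 for Mrln and -0.29 to 0.0674 for Gm34302 (Strit1).

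The call of Kcna5 in LV was also lost with no filter (adjusted p = 0.0936 from limma) and with the LV samples alone (0.0719).

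Pearson's r of Sln lost its call for Stard10 within LV (0.909) and without the 2 farthest samples (0.609), and for Sbk2 within RV (0.614) and without those samples (0.507). For Bmp10 it was -0.151 within RV and -0.154 after group means were removed.

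Over all genes, 65 were called in LV and 34 in RV between genotypes. These counts were 22 and 17 with no filter, 104 and 85 after quantile normalization, 99 and 88 after upper quartile scaling, 119 and 62 with the replicate block, and 230 and 88 with both WT-PLN samples numbered 1 left out, and 73 in RV without mitochondrial genes. With 1 sample left out they ranged from 19 to 153 in LV and 14 to 48 in RV. Against 0 in RV against LV of WT-PLN, 12 were called with the block within genotype, 2 without mitochondrial genes or without both samples numbered 1, and 1 with no filter or the samples alone. The interaction had 2 with no filter. At an unadjusted p of at most 0.05, limma gave 1811 genes in WT-PLN, 823 in R14del-PLN and 127 for the interaction. TPM hold no depth, so the limit that read number sets is unknown.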
